A study of Mus musculus with 12 samples.

Results

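The genes described here are the replication-dependent histone genes of the mouse, measured in the hippocampus. They were taken as every protein-coding row of the deposited table whose GENCODE M21 symbol opens with Hist1h, Hist2h, Hist3h or Hist4h followed by a class name (H1, H2A, H2B, H3 or H4). The rule found 67 genes among the 36119 genes of the table, and 3 pseudogenes with matching symbols were left out. The table holds 12 RNA-seq libraries of C57BL/6 hippocampus at postnatal day 70, in 4 groups of 3. Mice of the 2 ethanol groups were injected under the skin 2 times, 2 h apart, on each of postnatal days 6 and 7. Each injection carried ethanol at 2.5 g/kg, dissolved in saline of 0.15 M, and mice of the 2 saline groups received the same volume of saline. One sample tag calls the exposure prenatal, although the injections were given after birth. From postnatal day 21, 1 saline and 1 ethanol group lived in enriched cages of 2 to 6 same-sex littermates with wheels, toys and more nest material, and the others lived in standard cages. Each group is named by its cage and its injection, as in standard saline. The comparisons ask whether early ethanol and later enrichment altered the hippocampal transcriptome of adult mice, separately and together.

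Histones are the small basic proteins around which DNA is wound. H2A, H2B, H3 and H4 form the core of the nucleosome, and H1 binds the linker DNA between nucleosomes. The replication-dependent genes lie in clusters, have no introns in their classical form and are transcribed mainly in S phase. Their mRNAs classically end in a short stem-loop bound by SLBP in place of a poly(A) tail, although transcripts that run past the stem-loop and carry a poly(A) tail occur in cells that no longer divide. Most hippocampal neurons of an adult mouse are past division, and the dentate gyrus keeps a small population of dividing progenitors. The libraries were made from total RNA after removal of ribosomal RNA, a method that does not select for poly(A) tails.

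On GRCm38 the genes sit in 4 places, and most of them form 1 large cluster. Chromosome 13 holds the 54 Hist1 genes between 21715763 and 23934851, in blocks of 18, 5 and 31 genes. Chromosome 3 holds the 10 Hist2 genes between 96219865 and 96270132. Chromosome 11 holds 2 Hist3 genes between 58948920 and 58956830, and Hist4h4 stands alone on chromosome 6 at 136801553 to 136804415. By class there were 6 H1, 18 H2A, 18 H2B, 12 H3 and 13 H4 genes.

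The stem-loop is the sequence that marks this class of mRNA, so it was searched for in the GENCODE M21 transcripts after the stop codon. The pattern sought was a stem of 6 pairs around a loop of 4 bases. The stem had to open with GG and close with a T-A pair, and the loop to read TNTN (N, any base). This pattern was found in 46 of the 67 genes (68.7%), against 14 of 21834 other protein-coding genes (0.0641%). The annotated transcripts of 11 of the 67 genes hold coding bases only, so that no stem-loop could be found in them. The most common form was shared by 26 genes. The element is shown for 6 genes whose values are given further on and for Hist1h2bb as an example of another loop, with 5 bases on either side, 5′ to 3′, and the 16 bases of the stem-loop in capitals.
Hist1h4h: ccaaaGGCCCTTTTCAGGGCCgccca
Hist1h4d: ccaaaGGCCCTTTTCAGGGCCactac
Hist1h1c: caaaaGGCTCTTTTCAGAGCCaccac
Hist1h2be: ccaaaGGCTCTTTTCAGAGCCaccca
Hist2h3c1: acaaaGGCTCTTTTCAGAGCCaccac
Hist2h2aa1: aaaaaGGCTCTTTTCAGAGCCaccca
Hist1h2bb: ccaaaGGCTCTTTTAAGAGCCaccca
Hist1h4h and Hist1h4d show a form shared by 7 genes, Hist1h2bb one found in 6 genes, and the other genes listed the most common form. In the annotation the Hist1h4h transcript ends 46 bases after its stem-loop, and the Hist2h2aa1 transcript ends 35 bases after it. Longer models run on for 770 bases in Hist1h4d, 840 in Hist1h1c, 1162 in Hist2h3c1 and 1861 in Hist1h2be. The deposited value of a gene combines its transcripts, so short and extended forms could not be told apart.

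The copies within a class are alike in sequence, which limits how finely their levels can be separated. Coding sequences of equal length were 85.3% to 100% identical among the 13 H4 genes (78 pairs, median 93.9%), 93.7% to 100% among the 12 H3 genes, 82.9% to 100% among 17 H2B genes and 77.6% to 100% among 15 H2A genes. The first 60 coding bases of 5 H4 genes show an identical pair and 2 genes farther from Hist1h4h, with bases that differ from Hist1h4h in capitals.
Hist1h4h: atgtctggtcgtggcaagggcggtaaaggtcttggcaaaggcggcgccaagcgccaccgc
Hist1h4d: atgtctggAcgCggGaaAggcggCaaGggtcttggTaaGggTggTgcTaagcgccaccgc
Hist1h4m: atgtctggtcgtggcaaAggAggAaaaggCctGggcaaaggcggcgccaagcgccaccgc
Hist1h4n: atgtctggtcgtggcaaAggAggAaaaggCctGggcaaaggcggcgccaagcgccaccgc
Hist4h4: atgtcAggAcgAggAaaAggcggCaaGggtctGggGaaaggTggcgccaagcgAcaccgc
Over the whole coding sequence of 312 bases, Hist1h4m and Hist1h4n were identical, Hist1h4d differed from Hist1h4h at 19 bases, and Hist4h4 differed from it at 43 bases. As a measure of how well a gene can be told from all others, each transcript was divided into words of 31 bases, and the share of its words found in no other gene was taken. In 26 of the 67 genes at least 50% of the words were unique, and in 41 genes fewer were. The share was 85.7% in Hist4h4, 85.3% in Hist1h4d, 88.6% in Hist1h1c and 50% in Hist1h4h. It was 0% in Hist2h2bb, Hist2h3b, Hist2h3c1, Hist2h2aa1 and Hist2h2aa2 on chromosome 3, where other gene models or an identical copy hold the same words. The library kit keeps strand, but whether the authors' quantification used it is not given in the sources used here, so for these genes reads of the histone and of another model may not have been separated.

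Promoters were compared because the genes are known for shared promoter elements, and 62 of the 67 had an entry in the RefSeq table on GRCm38.p6, which spans 250 bases before to 50 bases after the start. On either strand, the core of the TATA box, TATAAA, was present in 35 of 62 promoters (56.45%), against 13.62% of all 32851 promoters. ATTTGCAT, the octamer, was present in 13 (20.97%), against 1.735% of all. These 13 were 7 of 18 H2A and 6 of 16 H2B promoters, and no H1, H3 or H4 promoter held it. CCAAT was present in 53 of 62 (85.48%), against 37.41% of all, and was found in 3 of 12 H4 promoters. The 100 bases before the start are shown for 3 genes with values in different directions after ethanol, with these motifs in capitals (ATTGG is CCAAT on the other strand). All 3 genes lie on the + strand.
Hist2h2bb, chr3:96269600-96269699: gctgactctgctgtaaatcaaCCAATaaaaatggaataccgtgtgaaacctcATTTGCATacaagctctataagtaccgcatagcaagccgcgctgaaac
Hist1h2ab, chr13:23750988-23751087: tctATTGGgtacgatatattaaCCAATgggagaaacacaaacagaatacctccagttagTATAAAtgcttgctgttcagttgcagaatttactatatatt
Hist1h4d, chr13:23581468-23581567: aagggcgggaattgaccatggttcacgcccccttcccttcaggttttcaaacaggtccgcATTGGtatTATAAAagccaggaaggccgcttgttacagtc
The motifs are matches to letters and were not tied to any value.

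Histone mRNAs of all 5 classes were present in every library. Values are the authors' TPM (a transcript abundance scaled by transcript length), and the libraries' column sums ran from 973187 to 1024536. The 67 genes summed to between 2588 and 3089 TPM, or 0.259% to 0.306% of a library's sum. H4 genes gave 49.1% of the mean summed TPM, H2B 20.6%, H2A 18.3%, H3 7.46% and H1 4.55%. Sequencing depth cannot be read from TPM, so no counting error is given. Hippocampal excitatory neuron markers (10 genes) summed to between 1196 and 1694 TPM, and choroid plexus markers (5 genes) to 7743 TPM in enriched saline 2 against 34.2 to 424 TPM in the other 11 libraries. In bulk tissue, fewer cells of a type and less RNA per cell cannot be told apart.

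**Figure D1:**
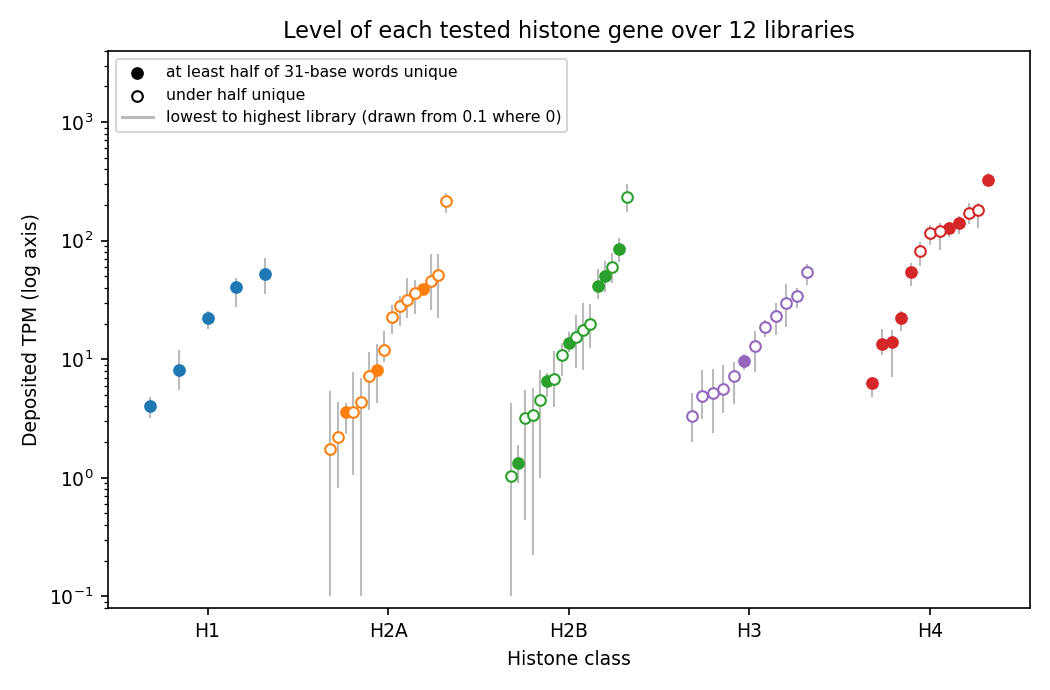
Mean deposited TPM of each of the 63 tested histone genes over 12 libraries (log axis), by class, with lines from the lowest to the highest library. Filled points have at least 50% of their 31-base words unique, and the H4 gene Hist1h4h stands highest at 325 TPM.

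Levels of single genes spanned a wide range. Of the 67 genes, 9 had a mean of at least 100 TPM over the 12 libraries, 31 lay between 10 and 100 TPM, and 23 between 1 and 10 TPM. The other 4 had means under 1 TPM and were not tested. Among these, Hist1h2ba, the H2B gene of testis, and its neighbour Hist1h2aa were listed at 0 in all 12 libraries, Hist1h1t, the testis linker histone, had a mean of 0.0921 TPM, and Hist1h2ao was listed at 0 in 11 libraries. A value of 0 in an estimated table can be a failed estimate, above all for Hist1h2ao, whose coding sequence is identical to that of Hist1h2ap at 31.4 TPM.

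The 10 highest genes held 7 H4 genes. Hist1h4h, which encodes the same class of core histone as the other H4 genes, had a mean of 325 TPM (295 to 373), above Hist1h4k at 181, Hist1h4m at 171, Hist1h4c at 141, Hist1h4d at 129, Hist1h4f at 121 and Hist1h4n at 115 TPM. The lowest library of Hist1h4h lay above the highest library of each of these 6 genes. The other 3 were the H2B gene Hist2h2bb at 236 TPM, the H2A gene Hist2h2aa2 at 217 TPM and the H2B gene Hist1h2bc at 84.3 TPM. Ranges of Hist2h2bb (175 to 301 TPM) and Hist2h2aa2 (172 to 254 TPM) overlapped. For scale, the replication-independent variants H3f3a (H3.3), H3f3b (H3.3) and H2afz (H2A.Z), which are made throughout the cell cycle, ranged from 313 to 386, 174 to 231 and 199 to 242 TPM.

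Variation between libraries was larger for low and for poorly distinguished genes. The coefficient of variation (CV) over 12 libraries had a median of 12.9% in the 9 genes at 100 TPM or more, 17.5% in the 31 genes between 10 and 100 TPM and 32.2% in the 23 genes between 1 and 10 TPM. The median CV was 13.3% in the 23 tested genes with at least 50% unique words and 23.9% in the 40 tested genes with fewer. Across the 63 tested genes, Spearman's rho was -0.62 between CV and mean TPM and -0.45 between CV and unique share. These are descriptions across genes that share reads and libraries. The extremes were Hist3h2a, with a CV of 4.70%, and Hist1h2bq, with a CV of 149%.

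Sums over near-identical copies varied less than the copies themselves. Hist1h2bq was listed at 0 to 4.28 TPM and its coding twin Hist1h2br (CV 59.5%) at 0.222 to 5.77 TPM, while their sum ran from 2.94 to 6.24 TPM (CV 24.3%). Hist2h2aa1 (CV 28.5%) and Hist2h2aa2 (CV 10.02%), H2A genes of identical coding sequence on chromosome 3, had a summed CV of 9.86%, close to that of Hist2h2aa2 alone. The class sums had CVs of 5.82% (H2A), 6.92% (H2B), 6.97% (H4), 7.66% (H3) and 15.4% (H1), and the sum of all 67 genes had a CV of 5.72%.

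Genes of H2A and H2B that face away from each other with a short shared promoter did not have equal TPM. There were 12 such neighbouring pairs, 175 to 305 bases apart, and both genes were tested in 10. The higher gene was 1.45 to 23.7 times the lower in TPM (median 4.46 times, over the 11 pairs with values above 0). The median is the ratio of Hist1h2bq to Hist1h2ao, which was listed at 0 in 11 libraries, so it is uncertain. Some partners are poorly told from their copies, such as Hist1h2ap and Hist1h2br with 6.64% and 10.5% unique words. The largest gap was between Hist1h2bc at 84.3 and Hist1h2ac at 3.56 TPM, with 66.5% and 83.1% unique words. TPM is scaled by transcript length, and their annotated lengths were 1156 and 2482 bases. Across the 63 tested genes Spearman's rho was -0.31 between mean TPM and annotated length. The parts of length and of reads shared among copies in these ratios were not tested. After removal of group means, Pearson's r between the partners over 12 libraries ran from -0.43 to 0.52 with a median of 0.23. The median over all 1953 pairs of tested histone genes was 0.10, and it was 0.41 over the 78 pairs of H4 genes. The genes most like Hist1h4h in the same deviations over 12 libraries were Grcc10 (r = 0.96), Prdx3 (0.95), Mrpl13 (0.94), Rpl24 (0.94) and Ndufb1-ps (0.94). The nearest histone gene was Hist2h2be (0.83), at rank 96. These are the highest values of a search over all tested genes, and with 12 libraries such a search can return high r by selection alone.

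The summed level of each of the 5 classes overlapped between saline and ethanol in both housings and between housings after both injections. The H4 sum was 1421 ± 92.6 TPM in standard saline, 1314 ± 86.0 in standard ethanol, 1410 ± 18.0 in enriched saline and 1355 ± 151 in enriched ethanol (mean ± SD, n = 3 each). In standard cages the 3 ethanol libraries held 1220, 1330 and 1390 TPM of H4 mRNA and the 3 saline libraries 1527, 1380 and 1356 TPM, so the groups overlapped. H2B sums were 595 ± 22.8, 550 ± 38.0, 588 ± 34.2 and 573 ± 61.5 TPM in the same order. H2A sums were 507 ± 38.2, 501 ± 18.4, 521 ± 12.1 and 528 ± 48.0 TPM, and H3 sums were 209 ± 20.02, 201 ± 2.65, 202 ± 4.58 and 224 ± 22.4 TPM.

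**Figure D2:**
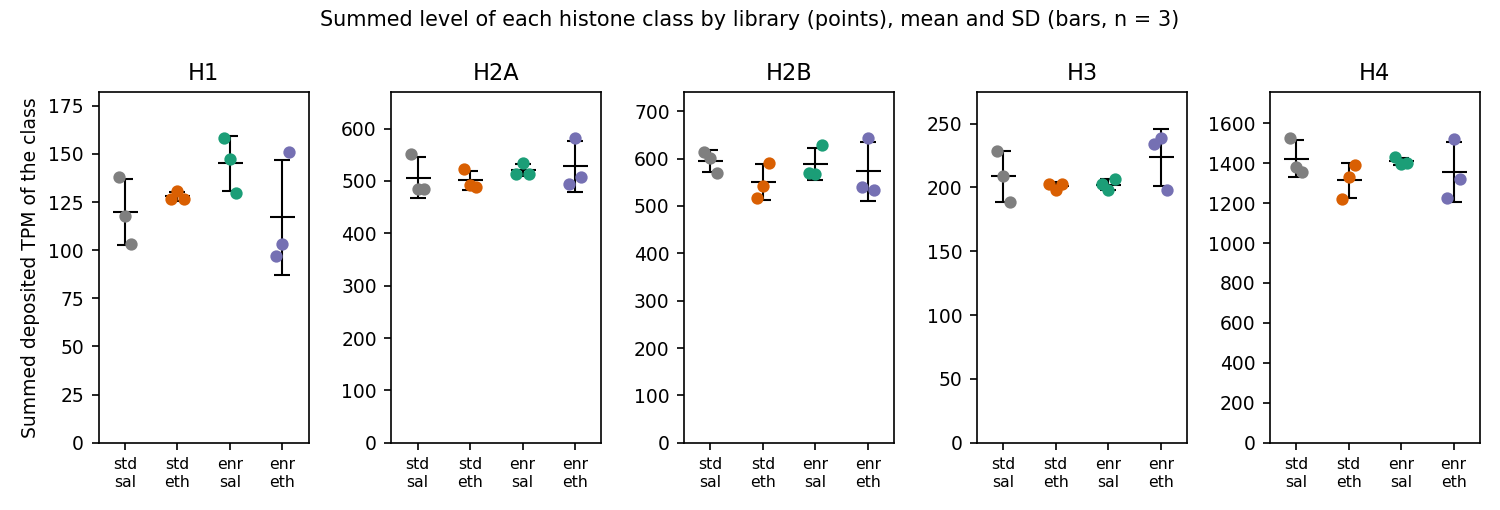
Summed deposited TPM of each histone class in every library (points), with mean and SD of 3 libraries per group (std, standard cages; enr, enriched cages; sal, saline; eth, ethanol). H4 is the highest class in all 12 libraries, and the widest spread relative to its mean is that of H1 in enriched ethanol, from 96.8 to 151 TPM.

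The H1 sum, carried mainly by the linker histones Hist1h1c and Hist1h1e, varied most. It was 120 ± 17.4 TPM in standard saline, 128 ± 2.28 in standard ethanol, 145 ± 14.4 in enriched saline and 117 ± 29.8 in enriched ethanol. Enriched ethanol 1 and 2 held 96.8 and 103.0 TPM and enriched ethanol 3 held 151 TPM, while the 3 enriched saline libraries held 130 to 158 TPM. The group's mean therefore described none of its libraries closely.

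No histone gene passed the test in any of 8 comparisons. Genes with a mean of at least 1 TPM over 12 libraries were tested with limma on log2(TPM + 0.5), with Benjamini-Hochberg adjustment over 14947 genes and a threshold of 0.05, and 63 of the 67 histone genes entered. The labels do not give litters, so these p-values measure only the spread between these libraries. The background was nearly empty too. The share of all tested genes called was 0.0134% for ethanol in standard cages, 0% for ethanol in enriched cages, 0.0268% for enrichment in saline mice and 0.00669% for enrichment in ethanol mice. It was 0.0134% for ethanol with enrichment against neither, 0.0134% for the interaction, 0.0134% for ethanol averaged over housing and 0.0201% for enrichment averaged over ethanol. In simulated data for ethanol in standard cages over 14947 genes, the test detected 74% of 100 genes changed 2-fold and 91% of 100 genes changed 4-fold, so some 2-fold differences would be missed. Both sets of changed genes were present together, and the adjustment is stricter where fewer genes change. Changes smaller than 2-fold were not simulated.

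Counts of genes whose 3 libraries lay wholly above or below the other 3 were near the background in most comparisons. After ethanol in standard cages 8 of 63 histone genes lay apart and higher and 7 lower, against 6.11% and 5.99% of all tested genes (shares of 12.7% and 11.1%). After ethanol in enriched cages 4 lay higher and 4 lower (6.35% each, against 7.78% and 7.45%). With enrichment 4 lay higher and 2 lower in saline mice (6.35% and 3.17%, against 7.4% and 6.57%), and 5 higher and 1 lower in ethanol mice (7.94% and 1.59%, against 6.07% and 5.97%). With both against neither 8 lay higher and 5 lower (12.7% and 7.94%, against 5.07% and 5.59%). For enrichment over all 12 libraries, 6 against 6, the counts were 0 and 0 (background 0.234% and 0.14%).

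Ethanol averaged over both housings had the most histone genes at an unadjusted limma p under 0.05. There were 13 higher (20.6% of 63, against 3.97% of all tested genes) and 8 lower (12.7%, against 4.05%). Both shares lay above the background, but the genes share reads and are not separate observations. After genes that share over 50% of their words were summed, 22 rows remained, of which 2 were higher and 6 lower. The 2 higher rows were the sums of 14 H2B genes and of 12 H2A genes. As shares of 22 rows, both counts still lay above the background, but a count of 2 rows is too small to be told from it. Rows were joined only for words shared between histone genes, so sharing with other gene models remained. The 13 fell to 8 without standard saline 2, without standard saline 3 or without standard ethanol 2, and to 6 without enriched ethanol 2, while the 8 ranged from 6 to 10 over all 12 such fits. The lowest adjusted p in this comparison was 0.352. The median log2 fold change was 0.06 over the 63 histone genes and 0.00 over all tested genes.

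The direction of single genes differed between classes in the average over housings. Of 13 H4 genes 12 were lower in ethanol and all 5 tested H1 genes were lower, whereas 12 of 16 H2A, 14 of 17 H2B and 8 of 12 H3 genes were higher. The median log2 fold change was -0.13 for H4, -0.11 for H1, 0.14 for H2A, 0.19 for H2B and 0.19 for H3. Over all genes tested, 49.2% were higher. The fold changes are small, and 7 of the 13 H4 genes share sequence in 1 group, so that the class counts are not counts of independent genes. Summed TPM did not follow these counts in every class. The mean H2B sum was lower after ethanol, at 550 against 595 TPM in standard and 573 against 588 in enriched cages. In the same order, H2A sums were 501 against 507 and 528 against 521 TPM, and H3 sums 201 against 209 and 224 against 202. The median log2 fold change was -0.05 in the 23 tested genes with larger shares of unique words and 0.17 in the other 40.

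Hist1h4d, the H4 gene best separated from its copies on chromosome 13, was lower after ethanol in both housings. It measured 143, 138 and 137 TPM in standard saline and 117, 124 and 122 TPM in standard ethanol. In enriched cages it measured 135, 134 and 136 TPM after saline and 108, 127 and 126 TPM after ethanol. All 6 ethanol libraries lay below all 6 saline libraries, and no other histone gene separated the 12 libraries this way. The share of all tested genes that did so was 0.261% lower and 0.154% higher. The log2 fold change averaged over housing was -0.18 (SE 0.05, adjusted p = 0.376, limma).

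Other H4 genes of high level or small p gave less even values. Hist4h4, the single gene on chromosome 6, measured 6.89, 6.85 and 7.02 TPM in standard saline, 5.62, 5.97 and 6.89 in standard ethanol, 6.99, 6.66 and 6.83 in enriched saline, and 4.82, 6.26 and 4.98 in enriched ethanol. Its averaged log2 fold change was -0.25 (SE 0.09, adjusted p = 0.525, limma). The groups were apart in enriched cages, and in standard cages 1 ethanol library lay among the saline ones. Hist1h4c measured 135 to 161 TPM in standard saline and 130 to 133 in standard ethanol, which were apart, and 149 to 156 in enriched saline and 114 to 153 in enriched ethanol, which overlapped. Hist1h4h measured 295 to 315 TPM in standard ethanol and 314 to 353 in standard saline, and 317 to 373 in enriched ethanol and 301 to 338 in enriched saline. The most abundant H4 gene overlapped in both housings, with a mean lower after ethanol in standard cages and higher in enriched cages.

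**Figure D3:**
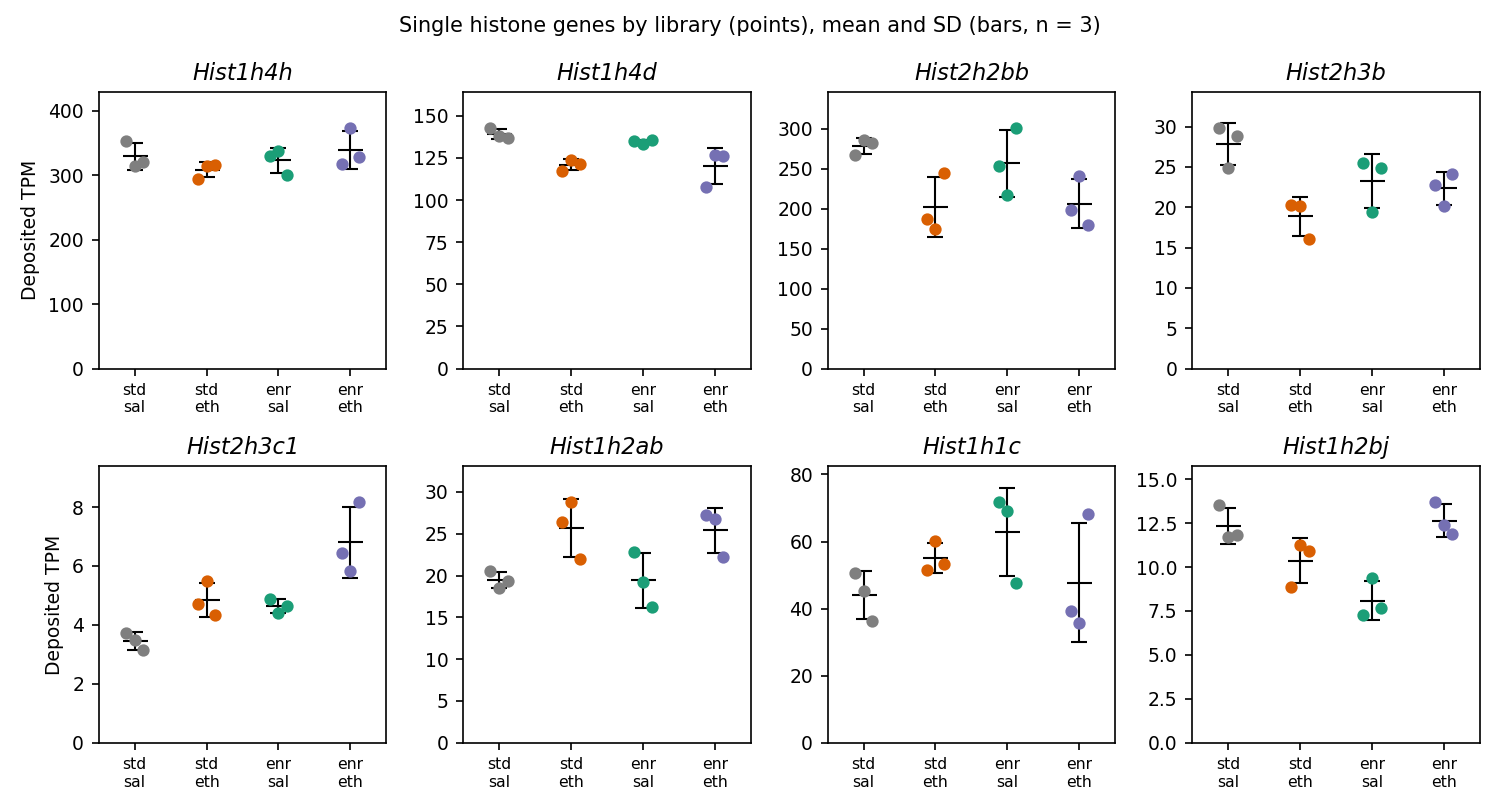
Deposited TPM of 8 histone genes in every library (points), with mean and SD of 3 libraries per group (std, standard cages; enr, enriched cages; sal, saline; eth, ethanol). The 6 ethanol libraries of Hist1h4d, at 108 to 127 TPM, lie below its 6 saline libraries, at 134 to 143 TPM.

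The Hist2 genes on chromosome 3 held values in both directions. Of these 10 genes 2 were higher and 5 lower after ethanol at an unadjusted p under 0.05 in the average over housings (3.97% and 4.05% of all tested genes). Hist2h2bb (H2B) measured 267, 285 and 282 TPM in standard saline and 187, 175 and 244 TPM in standard ethanol, with no overlap. In enriched cages it measured 253, 217 and 301 TPM after saline and 199, 240 and 180 TPM after ethanol, where the groups overlapped. The averaged log2 fold change was -0.39 (SE 0.10, adjusted p = 0.403, limma). Hist2h3b (H3), which like Hist2h2bb shares all its words with the gene model Gm20628, measured 29.8, 24.8 and 28.8 TPM in standard saline and 20.3, 20.2 and 16.1 TPM in standard ethanol. Its log2 fold change in standard cages was -0.55 (SE 0.13, adjusted p = 0.271, limma), and in enriched cages, where ranges of 19.4 to 25.5 and 20.1 to 24.1 TPM overlapped, it was -0.05 (SE 0.13).

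Hist2h3c1 and Hist2h3c2, a pair of H3 genes with identical coding sequence, had higher values after ethanol. Hist2h3c1 measured 3.73, 3.49 and 3.14 TPM in standard saline and 4.70, 5.48 and 4.34 TPM in standard ethanol. In enriched cages it measured 4.86, 4.41 and 4.66 TPM after saline and 6.43, 5.82 and 8.16 TPM after ethanol. Within each housing the groups were apart, while standard ethanol overlapped with enriched saline. The averaged log2 fold change was 0.46 (SE 0.11, adjusted p = 0.352, limma). Hist2h3c2 measured 4.17 to 8.07 TPM in the 6 saline and 7.00 to 9.40 TPM in the 6 ethanol libraries. The sum of both genes was 7.83 to 12.5 TPM after saline and 12.8 to 16.8 TPM after ethanol, and with Hist2h3b added the ranges were 31.9 to 40.1 and 29.9 to 40.9 TPM. All words of Hist2h3c1 also lie in the gene model Gm20634, and the part of that model in the values was not tested.

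H2A and H2B genes on chromosome 13 made up most of the higher values. Hist1h2ab (H2A) measured 20.5, 18.5 and 19.4 TPM in standard saline and 26.4, 28.8 and 22.0 TPM in standard ethanol. In enriched cages it measured 22.9, 19.2 and 16.2 TPM after saline and 27.2, 26.8 and 22.3 TPM after ethanol. The groups were apart in standard cages, and in enriched cages 1 saline library lay above the lowest ethanol library. The averaged log2 fold change was 0.39 (SE 0.09, adjusted p = 0.377, limma). Hist1h2ad, an H2A gene that holds 62.5% of its words, had 3.74 to 7.79 TPM in the 6 saline and 5.96 to 11.4 TPM in the 6 ethanol libraries, with a log2 fold change of 0.62 (SE 0.18, adjusted p = 0.442, limma). Hist1h2be (H2B) measured 11.7 to 12.4 TPM in standard saline, 13.6 to 15.4 in standard ethanol, 11.6 to 14.7 in enriched saline and 13.7 to 16.9 in enriched ethanol, apart in standard cages only. Of the 28 tested genes in the third block of the cluster 10 were higher and 2 lower after ethanol averaged over housing at an unadjusted p under 0.05 (3.97% and 4.05% of all tested genes).

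Summed groups of these copies were also higher after ethanol in the average over housings. The 14 H2B genes that share sequence summed to 234 to 288 TPM in standard saline, 279 to 323 in standard ethanol, 252 to 289 in enriched saline and 296 to 345 in enriched ethanol. Their log2 fold change averaged over housing was 0.20 (SE 0.07, unadjusted p = 0.0096, adjusted p = 0.505, limma). The groups were apart in enriched cages only. The 12 H2A genes that share sequence summed to 143 to 174, 163 to 178, 126 to 152 and 151 to 240 TPM in the same order. Their log2 fold change was 0.30 (SE 0.10, unadjusted p = 0.0105, adjusted p = 0.505, limma). Those groups overlapped in both housings.

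In standard cages, 6 histone genes were higher and 6 lower after ethanol at an unadjusted limma p under 0.05 (9.52% each, against 3.75% and 3.64% of all genes). The 6 higher fell to 2 without standard ethanol 2, and the 6 lower fell to 3 without standard saline 1. In enriched cages 9 were higher and 6 lower (background 3.85% and 3.91%). The 6 lower fell to 2 without enriched saline 1, to 3 without enriched saline 3 and to 0 without enriched ethanol 1. The smallest adjusted p in enriched cages was 0.488, for Hist1h2bj.

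The 2 ethanol comparisons share no library, so their directions could be set side by side. Of 63 histone genes 43 (68.3%) had the same sign in both housings, 24 of them higher and 19 lower, against 50.2% of all 14947 genes tested. Pearson's r between the 2 sets of fold changes was 0.15 across the histone genes and 0.04 across all genes, as a description across genes that are not independent. Among the genes with at least 50% unique words the sign was shared by 16 of 23, and among the others by 27 of 40. Of the better separated genes 5 were higher and 11 lower in both housings, and of the others 19 were higher and 8 lower.

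**Figure D4:**
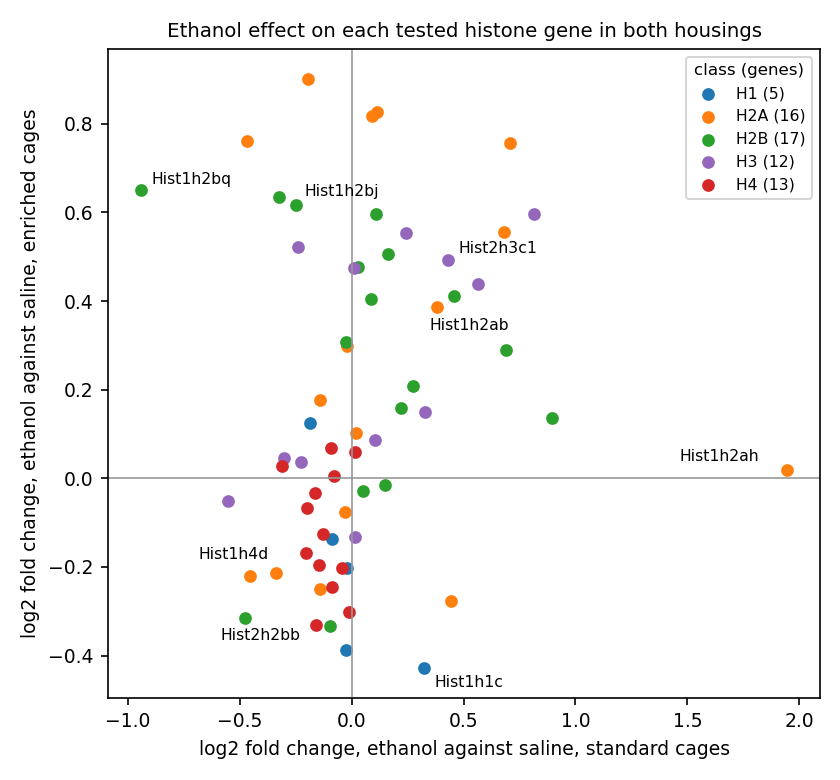
Log2 fold change, ethanol against saline, of the 63 tested histone genes in standard cages (x axis) and in enriched cages (y axis), coloured by class. H4 genes lie near or below 0 on both axes, and Hist1h2ah, listed at 0 in 5 libraries, lies farthest to the right at a position set in part by the pseudocount.

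Counts of histone genes for enrichment lay near the background. In saline mice 5 genes were higher and 1 lower at an unadjusted limma p under 0.05 (background 5.43% and 4.6%), shares of 7.94% and 1.59%. The 5 fell to 0 without standard saline 3, to 1 without enriched saline 1, to 2 without standard ethanol 1 or enriched ethanol 1, and to 3 without standard saline 2, enriched saline 2 or enriched ethanol 2. The 1 lower became 5 without standard saline 3, 3 without standard saline 2 or enriched saline 1, and 2 without standard ethanol 3, enriched saline 2, enriched ethanol 2 or enriched ethanol 3. In ethanol mice 3 were higher and 1 lower (background 2.91% and 2.66%), and averaged over ethanol 3 were higher and 1 lower (background 4.14% and 3.82%). The 3 in ethanol mice became 1 without standard ethanol 1 and 5 without enriched ethanol 3, and the 1 lower became 2 without enriched ethanol 2 or enriched ethanol 3. Averaged over ethanol the 3 became 1 without standard saline 3, enriched saline 1 or enriched ethanol 2, and 5 without standard saline 1. The 1 lower became 2 without standard saline 3, standard ethanol 1, enriched saline 2 or enriched ethanol 2, and 0 without standard ethanol 2, standard ethanol 3, enriched saline 1, enriched saline 3 or enriched ethanol 1. The median log2 fold change of the histone genes was -0.03 in saline mice, 0.07 in ethanol mice and 0.02 on average.

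Among them was Hist2h3c1, whose values are given above. Its log2 fold change with enrichment was 0.38 in saline mice, 0.44 in ethanol mice and 0.41 (SE 0.11, adjusted p = 0.415, limma) on average. Its 3 enriched saline libraries lay above the 3 standard saline libraries, and its 3 enriched ethanol libraries above the 3 standard ethanol ones. With both ethanol and enrichment against neither it had the smallest p of the histone genes, with a log2 fold change of 0.87 (SE 0.15, adjusted p = 0.197, limma). That comparison had 5 genes higher and 5 lower at an unadjusted p under 0.05 (background 3.24% and 3.27%). Without enriched ethanol 2 the higher count was 2, without enriched ethanol 1 it was 3 with 3 lower, and it was 8 without standard saline 1, enriched saline 2 or enriched ethanol 3.

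Hist1h2bc, the H2B gene with the highest level on chromosome 13, measured 66.4 to 80.6 TPM in standard saline, 76.6 to 105 TPM in enriched saline, 73.7 to 91.1 TPM in standard ethanol and 83.9 to 94.5 TPM in enriched ethanol. Its averaged log2 fold change with enrichment was 0.18 (SE 0.08, adjusted p = 0.617, limma), and groups overlapped at both exposures. Hist2h2aa1 (H2A) measured 45.9, 47.6 and 22.2 TPM in standard saline and 77.4, 59.4 and 54.1 TPM in enriched saline, without overlap. In its coding twin Hist2h2aa2 the same libraries held 242, 204 and 235 TPM and 225, 254 and 227 TPM. The sum of the pair was 288, 252 and 257 TPM in standard saline and 302, 313 and 281 TPM in enriched saline, which overlapped.

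Hist1h2ah (H2A) shows what values of 0 do to a comparison. It was listed at 0, 1.31 and 1.57 TPM in standard saline, 3.26, 5.42 and 4.32 in standard ethanol, 0, 2.43 and 0 in enriched saline, and 0, 2.55 and 0 in enriched ethanol. The 3 standard ethanol libraries stood above the other 9. Because 5 libraries were listed at 0, its fold depends on the pseudocount and is not a measured size, although the gene is 1 of the 6 counted as higher after ethanol in standard cages.

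The interaction, which asks whether the ethanol difference itself differed between housings, was smallest in p for Hist1h2bj. This H2B gene measured 13.6, 11.7 and 11.8 TPM in standard saline and 8.89, 11.3 and 10.9 TPM in standard ethanol. In enriched cages it measured 7.28, 9.36 and 7.65 TPM after saline and 13.7, 12.4 and 11.9 TPM after ethanol. Ethanol libraries were thus below saline libraries in standard cages and above them in enriched cages, without overlap in either. The interaction was 0.86 on the log2 scale (SE 0.18, adjusted p = 0.483, limma). Hist1h2bj shares 66.7% of its words with Hist1h2br.

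Hist1h1c, the most abundant linker histone gene, had the smallest p on the negative side. It measured 50.7, 45.4 and 36.4 TPM in standard saline, 51.6, 60.1 and 53.3 in standard ethanol, 71.7, 69.0 and 47.7 in enriched saline, and 39.3, 35.8 and 68.3 in enriched ethanol. The groups were apart in standard cages, and enriched ethanol 3 lay among the enriched saline libraries. Its interaction was -0.75 (SE 0.32, adjusted p = 0.646, limma). For the interaction 2 histone genes were higher and 1 lower at an unadjusted p under 0.05 (background 3.42% and 3.99%). The count higher was 7 without enriched ethanol 3, 6 without standard saline 3 or standard ethanol 3, 5 without enriched ethanol 1, and 4 without standard saline 2, standard ethanol 2 or enriched saline 3. The 1 lower became 2 without standard ethanol 3 or enriched ethanol 3, and 0 without standard saline 3, standard ethanol 2, enriched saline 2 or enriched ethanol 1.

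Genes that make, carry or process histones did not pass the test either. None of 23 tested genes for histone mRNA 3′ end processing, 11 replication-independent histone genes, 17 histone chaperone genes, 26 S phase genes and 8 proliferation genes was called in any of the 8 comparisons with limma. For ethanol averaged over housing the counts at an unadjusted p under 0.05, higher and lower, were 1 and 1 for processing, 2 and 0 for replication-independent histones, 0 and 1 for chaperones, 1 and 2 for S phase and 3 and 0 for proliferation, where 3.97% of all tested genes were higher and 4.05% lower. Median log2 fold changes were 0.01, 0.02, 0.04, -0.03 and 0.33 in that order. Slbp, which binds the stem-loop, measured 24.6 to 30.5 TPM in the 6 saline and 24.01 to 30.8 TPM in the 6 ethanol libraries and overlapped.

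Among the processing genes, Lsm11, a subunit of the U7 particle that cuts histone pre-mRNA, had an averaged log2 fold change of 0.23 and Snrpb, a core Sm protein, one of -0.13 (adjusted p = 0.559 and 0.470, limma). The linker variant H1fx had 0.26, the chaperone gene Hjurp -0.23, the replication factor Gins2 0.34 and the cyclin Ccne1 -0.22. Cdk1, the mitotic kinase, had 0.72 (SE 0.24, adjusted p = 0.5003, limma) at a low level of 0.636 to 2.85 TPM.

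Summed markers of dividing and immature cells separated the ethanol from the saline libraries. The 13 proliferation genes summed to 10.9 to 13.6 TPM in the 6 saline and 14.6 to 19.99 TPM in the 6 ethanol libraries, without overlap, and none of the 13 was at 0 in all libraries. Of the 13 genes 8 had a mean of at least 1 TPM, and among these Cenpf had a negative averaged log2 fold change (-0.32). Of single tested genes, 0.154% lay higher in ethanol without overlap in this way. The 7 immature neuron markers summed to 34.5 to 41.5 TPM after saline and 48.9 to 52.8 TPM after ethanol. The 27 S phase genes summed to 196 to 217 TPM after saline and 190 to 202 TPM after ethanol, which overlapped. Markers of some other cells differed too in the average over housings. At an unadjusted limma p under 0.05, 5 of 6 oligodendrocyte, 3 of 6 precursor, 3 of 5 astrocyte and 2 of 4 meningeal fibroblast markers were higher. Of 8 dentate granule cell markers 3 were lower. Of all tested genes 3.97% were higher and 4.05% lower at this threshold. No marker of hippocampal excitatory neurons, microglia, endothelium, choroid plexus or blood reached it in either direction. None of these markers was called after adjustment. Oligodendrocyte markers summed to 2935 to 5084 TPM after saline and 3528 to 5236 TPM after ethanol, and dentate granule cell markers to 190 to 331 and 165 to 221 TPM, both with overlap. In standard cages meningeal fibroblast markers summed to 51.6 to 53.8 TPM after saline and 86.2 to 109.6 TPM after ethanol, and in enriched cages they overlapped. The part of all these cells in the histone values was not tested.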

How the data were processed

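Hippocampal RNA of 12 mice was sequenced from stranded, ribosome-depleted total RNA libraries, per the labels' protocols. The submitters' processing notes name CASAVA, kallisto, sleuth and mm10, with no versions or roles, and no source used here gives the annotation. The authors deposited 1 value per gene and library under the name TPM; since the columns do not share 1 sum, this deposited signal was taken as proportional to TPM within a library. Each value column carried the name of its sample (0 left over), and groups come from the sample titles. Median ratios of libraries to their geometric mean were 0.994 to 1.01, and Spearman correlations between libraries 0.947 to 0.951.

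Symbols, positions and transcripts were taken from GENCODE M21 (GRCm38), in which 35827 of 36119 identifiers had a symbol, and promoters from RefSeq. limma 3.58.1 in R 4.3.3 fitted 1 mean per group to log2(TPM + 0.5) of all 12 libraries (8 residual and 3.82 prior degrees of freedom, mean-variance trend, two-sided), with 8 contrasts. Fold changes on this scale understate those of low genes. The script was tested on simulated data, where 7.82% of its calls were unchanged genes and 0 genes were called when nothing was changed. Sequence shares, sums and correlations were computed in Python 3.11.15 with pandas 2.3.3.

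Single genes were named as the 10 of highest mean, those of smallest p in each direction of a comparison (up to 3), and those whose saline and ethanol, or standard and enriched, libraries did not overlap. Hist1h2bb was added for its sequence, and Hist1h2bq, Hist1h2br, Hist1h2ac and Hist3h2a for the spread or ratio they show, and Slbp, H3f3a, H3f3b and H2afz for scale, after their values were seen. Members and lists were chosen with earlier results of these data known. The alternatives tried were another pseudocount, filter, scaling, prior and sample set, a replicate block, summed copies and leaving out each library.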

Additional observations from a re-analysis of the deposited data

How the results depend on the processing

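The count of 0 histone genes called stayed at 0 in all 189 repeats over the 8 comparisons, including the fits without each library. The repeats also hold a count of genes with at least 50% unique words, added after seeing the data. It was taken within the main fit, so it could only be 0 and tests nothing. All 48 fold changes of named genes kept their direction and side of the threshold under the alternatives applied to them. The lowest adjusted p among them was 0.197 (limma), so keeping that side was a weak test. Summed copies were not applied to named genes with copies in their row. For averaged ethanol, the row of Hist2h3c1, Hist2h3c2 and Hist2h3b had a log2 fold change of -0.03, opposite in sign to Hist2h3c1 alone. The rows of 14 H2B and 12 H2A genes stayed above 0. Under both rescalings the class sums moved by less than 1 SD. Counts at an unadjusted p depended more on the setting. With summed copies the higher counts fell from 6 to 0 (ethanol, standard cages), 9 to 2 (ethanol, enriched cages), 5 to 1 (enrichment, saline), 3 to 0 (enrichment, ethanol), 5 to 2 (both against neither), 13 to 2 (ethanol averaged), 3 to 0 (enrichment averaged) and 2 to 1 (interaction), though fewer rows were tested, and the lower count fell from 6 to 3 (ethanol, standard cages) and from 1 to 0 (enrichment in saline, in ethanol and averaged). Without a trend, or with no filter, the 5 for enrichment in saline mice became 2, and with a robust prior 3, and without a trend the 6 lower for ethanol in enriched cages became 3 and the 1 lower for the interaction 0. With the groups compared alone, both against neither gave 8 higher in place of 5, and enrichment in saline 3 lower in place of 1.

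Replicate numbers did not pair the libraries: deviations of same-numbered libraries correlated at -0.15 to 0.06 (18 pairs) and those of others at -0.09 to 0.12. With the replicate block 0 histone genes were called in each comparison, and 13 were higher and 8 lower for averaged ethanol at an unadjusted p. Over all genes, 0 to 4 were called per comparison. Single libraries moved this to 15 (ethanol, enriched), 21 (enrichment, ethanol), 16 (both against neither), 12 (interaction), 10 (ethanol averaged) and 12 (enrichment averaged) without enriched ethanol 3, and to 20 (enrichment, saline) and 7 (ethanol, standard) without standard saline 2. Other settings gave 0 to 8. Depth is unknown, copies share reads, and litters are not given.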
